A study of Homo sapiens with 8 samples.

Results

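HepaRG is a human hepatic progenitor line able to form cells of both hepatocyte and bile duct type. M14A is described as gene-edited HepaRG, and the genotype label of all 5 M14A libraries reads FoxM1/HNF4A transfected. The comparison sets M14A cells collected 4 h after bioprinting against M14A cells grown in a flask. It uses 5 of the 8 libraries of the series, the 2 printed ones (replicates 1 and 2) and the 3 flask ones (replicates 1, 2 and 3, the plate libraries). They were chosen by their labels, and the other 3 libraries are flask-grown parental HepaRG. For printing, M14A cells were lifted from flasks, mixed with a bioink called GP and printed, and the printed constructs were snap-frozen with liquid nitrogen and broken up with a mortar before TRIzol. Flask cells were lifted, pelleted and put directly into TRIzol. Lifting is shared by both groups, while bioink, printing, the 4 h in the construct and freezing with grinding were present in 1 group only and cannot be told apart. The labels do not say whether M14A is 1 clone, how the editing was done, or whether replicates came from separate cultures. All p-values therefore measure only the spread between these libraries, which may be technical.

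Bioprinting suspends cells in a gel precursor, deposits it in a shape and crosslinks it, here with a bioink that the series title describes as crosslinked by visible light. Cells meet shear, light and the loss of a flat substrate. Cells answer changes of this kind within minutes to hours through immediate early genes, which encode transcription factors of the FOS, JUN, ATF, EGR and NR4A families and are transcribed without new protein synthesis. Slower layers include heat shock chaperones, the ATF4 programme of amino acid and protein stress, NRF2 targets against oxidants, and NF-kappaB targets such as chemokines. In liver cells these layers stand beside the hepatocyte programme run by HNF4A, C/EBP and FOXA factors, and beside YAP/TAZ targets, which follow tension and spreading of the cell.

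Levels are FPKM, in which the reads of a gene are divided by its length and by a size of the library. A gene was tested where at least 2 of the 5 libraries reached 1 FPKM, which left 13219 of 58735 annotated genes. Each difference below is the mean of log2(FPKM + 1) in printed cells minus that in plate cells, given with its SE. This scale understates the change of genes with low levels. A gene was called where the Benjamini-Hochberg adjusted p of limma over all tested genes was below 0.05, and only called genes are said to rise or fall. By this rule 1285 genes were higher in printed cells (9.72% of those tested) and 1131 were lower (8.56%). Of these, 697 and 624 differed by at least 2-fold. The groups did not overlap in any of the 2416 called genes, nor in 4581 of the 10803 genes not called. The plot of all tested genes shows the calls at every level of expression.

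**Figure D1:**
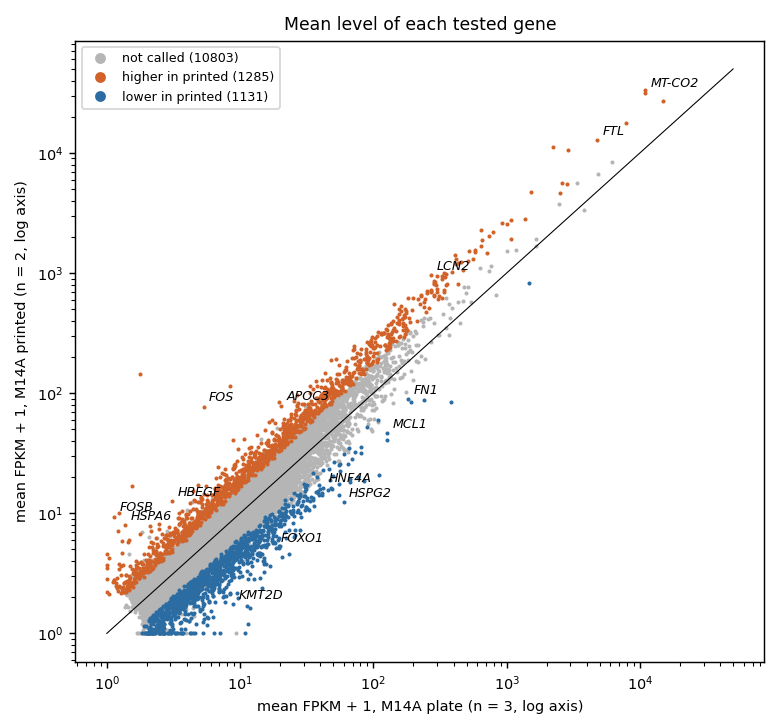
Mean FPKM + 1 of each of the 13219 tested genes in M14A plate (horizontal axis, n = 3) and M14A printed (vertical axis, n = 2), both on log axes, with the line of equal levels. Orange points are the 1285 genes called higher and blue points the 1131 called lower in printed cells; FOS and FOSB lie far above the line and KMT2D far below it.

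Several measurements of the libraries bear on every result. Reads recovered from the FPKM values numbered 16356533 to 19017369 per library, and 1 read in a gene of 1 kb equals 0.0508 to 0.0747 FPKM. Mitochondrially encoded genes took 9.72, 8.21 and 8.70% of reads in the plate libraries and 13.3 and 16.4% in the printed ones. The deposited FPKM sum to 272290 to 350931 in plate and to 499995 and 514152 in printed libraries. Such a sum also depends on the lengths of the genes that take the reads. The library size implied by the FPKM was 0.968, 1.15 and 1.19 times the recovered reads in plate libraries. In printed libraries 1 and 2 it was 0.818 and 0.853 times, so this size is not the read total. When every library was rescaled to an equal FPKM total, the median difference of all genes went from 0.04 to -0.55, and 325 genes were higher and 4855 lower. The share of higher genes among calls then went from 53.2 to 6.27%. Below, a median "at equal totals" refers to that rescaling, and it is given wherever the sign of a list's median turns.

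M14A plate library 1 stood apart from its group. Its Pearson correlations with plate libraries 2 and 3 over the tested genes were 0.953 and 0.944, against 0.988 between those libraries and 0.982 between the printed ones. Without it, 3211 genes were higher (24.3%) and 2671 lower (20.2%). Without plate library 2 the counts were 544 and 677, and without plate library 3 they were 878 and 1009. Leaving out 1 printed library leaves that group with a single library, assumed to vary like the plate group. The counts were then 9 and 21 without printed library 1, and 9 and 3 without printed library 2. Of the 156 called genes that the naming rule selects, 154, 114 and 137 kept their call without plate library 1, 2 or 3, 18 without printed library 1 and 8 without printed library 2. With no filter on low levels, 32601 genes were tested and limma called 0 in either direction (smallest adjusted p = 0.0638), while 6063 had an unadjusted p below 0.05. The counts of each gene list are given with all 5 libraries and without plate library 1. The shares of all tested genes to set beside them are 9.72% higher and 8.56% lower with all 5 libraries. Without plate library 1 those shares were 24.3% and 20.2%.

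Gene length moved with the comparison. Among protein-coding genes of up to 1 kb, the median difference was 0.85 and 74 of 162 were higher, against 3 lower. Among those over 8 kb, the median was -0.27, and 33 of 2237 were higher against 339 lower. The 3 classes between fell in order, with medians of 0.59, 0.25 and -0.05. Plate library 1 minus plate libraries 2 and 3 had a trend of the same direction, from 0.37 in the shortest to -0.13 in the longest class. When each library's trend with gene length and transcript GC content was removed, 2482 genes were higher (18.8%) and 2207 lower (16.7%). The part of length in the results was not tested beyond this removal, and medians after it are given for some lists.

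**Figure D2:**
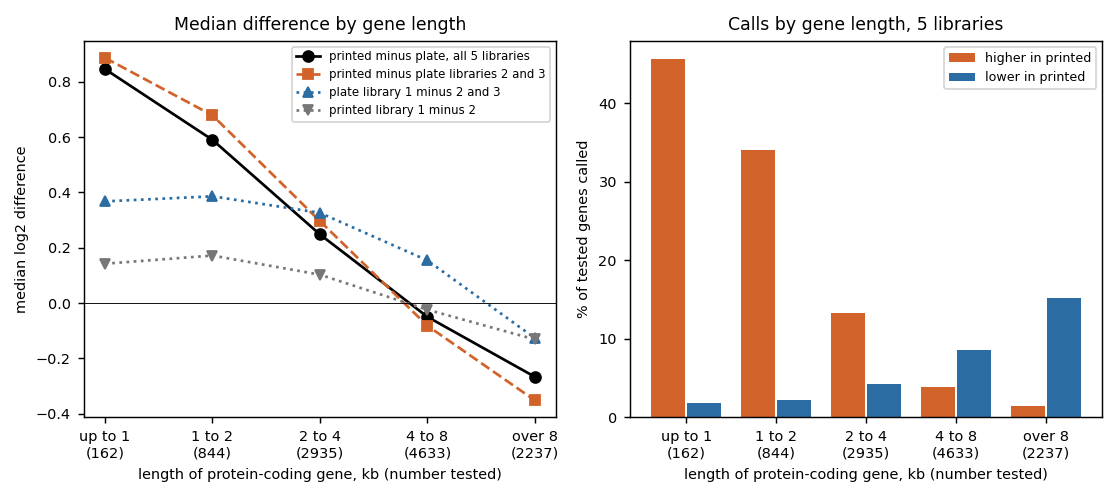
Protein-coding genes by gene length in kb, with the number tested in brackets. The left panel gives the median log2 difference for printed minus plate, with and without plate library 1, and for libraries within a group; the right panel gives the percentage of tested genes called higher (orange) or lower (blue). The median falls from 0.85 in the shortest to -0.27 in the longest class.

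The label's cell type was set against marker genes. Of 8 hepatocyte markers 5 passed the filter, ALB and SERPINA1 among them, while AHSG, TF and TTR stayed below 1 FPKM in all 5 libraries. Of 6 cholangiocyte and progenitor markers, KRT7, KRT19, SOX9 and SPP1 passed, EPCAM was at 0 and CD24 below 1 FPKM. Of the 11 stellate cell and fibroblast markers 4 passed and none was called, with a summed level of 79.5 to 109.8 FPKM in plate and 124 and 138 FPKM in printed libraries. Summed markers reached at most 2.36 FPKM for endothelial cells, 12.01 for leukocytes, 0.831 for erythroid cells and 1.99 for muscle. CDH5 and HBA2 were at 0 in all 5 libraries. None of the markers of these 4 cell types was called in either direction.

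The genes of the genotype label come first. HNF4A, the nuclear receptor at the centre of hepatocyte gene control (chromosome 20, 44355700 to 44434596, GRCh38), stood at 37.9, 43.1 and 41.7 FPKM in plate and 17.1 and 13.6 FPKM in printed libraries. Both printed values lay below every M14A plate value and above the 5.67, 6.24 and 6.499 FPKM of parental HepaRG. HNF4A fell by 1.36 ± 0.22 on the log2 scale (limma, adjusted p = 0.0104). The label names HNF4A as transfected, and a value per gene does not separate reads of an introduced copy from those of the cell's own gene. FOXM1, a transcription factor of G2 and mitosis, stood at 13.004, 10.4 and 8.92 FPKM in plate and 10.1 and 10.1 FPKM in printed libraries. Parental HepaRG had 12.9, 13.7 and 14.9 FPKM, so the level of FOXM1, unlike that of HNF4A, was not raised in the libraries labelled as transfected. The FOXM1 groups of M14A overlapped (difference -0.07 ± 0.22, 95% interval -0.58 to 0.44, adjusted p = 0.843). In a bulk sample, fewer cells with a message and less of it per cell cannot be told apart, here and for every gene below.

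Immediate early genes held some of the largest rises, and the regions before the start sites of the leading ones are shown first. The sequences are the 250 bases before the RefSeq start (GRCh38.p14), 5′ to 3′ on the plus strand, with matches to fixed motifs in capitals. They come from chr14:75278578-75278827 for FOS, chr19:45467746-45467995 for FOSB, chr9:89604762-89605011 for GADD45G and chr1:161524290-161524539 for HSPA6. HSPA6, a heat shock gene, was added after its values were seen.
FOS: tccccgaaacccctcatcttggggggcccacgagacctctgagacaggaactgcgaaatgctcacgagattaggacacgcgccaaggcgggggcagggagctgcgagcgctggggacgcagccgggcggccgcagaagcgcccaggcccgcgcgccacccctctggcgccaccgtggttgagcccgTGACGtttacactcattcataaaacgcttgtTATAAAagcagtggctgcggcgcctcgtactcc
FOSB: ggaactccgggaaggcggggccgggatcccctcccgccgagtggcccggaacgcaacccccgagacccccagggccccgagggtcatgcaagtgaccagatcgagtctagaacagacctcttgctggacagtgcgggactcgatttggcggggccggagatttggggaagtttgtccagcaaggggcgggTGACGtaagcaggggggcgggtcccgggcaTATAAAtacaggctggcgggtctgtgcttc
GADD45G: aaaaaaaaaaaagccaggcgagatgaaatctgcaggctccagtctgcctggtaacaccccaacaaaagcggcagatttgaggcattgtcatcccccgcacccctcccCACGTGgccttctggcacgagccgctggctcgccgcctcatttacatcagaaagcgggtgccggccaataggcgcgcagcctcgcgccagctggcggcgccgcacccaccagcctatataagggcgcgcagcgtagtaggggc
HSPA6: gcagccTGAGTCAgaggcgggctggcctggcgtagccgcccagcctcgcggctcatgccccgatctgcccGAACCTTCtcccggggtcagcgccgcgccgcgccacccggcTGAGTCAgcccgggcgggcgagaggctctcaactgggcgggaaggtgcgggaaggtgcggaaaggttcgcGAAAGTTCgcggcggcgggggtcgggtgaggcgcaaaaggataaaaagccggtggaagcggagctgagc

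Motifs were searched on both strands as exact letters. The core of the cAMP response element, TGACG, lies at -64 to -60 from the FOS start and at -60 to -56 from the FOSB start. It occurs in 21.2% of all 35116 RefSeq promoter windows of this length. A TATA box, TATAAA, follows at -33 to -28 in FOS and at -30 to -25 in FOSB, and 10.7% of windows hold one. GADD45G holds no TGACG, and its capitals mark ACGTG, the core of the hypoxia response element, which matches on both strands of one overlapping stretch (18.5% of windows). HSPA6 holds 2 heat shock elements, written GAANNTTC (5.78% of windows), at -180 to -173 and -69 to -62. It also holds 2 AP-1 sites, TGACTCA, on the minus strand (4.20% of windows). The CArG box, which serum response factor binds (1.16% of windows), and the NF-kappaB site (1.73%) have no match in these 4 windows. Of the next early genes by size of rise, GADD45B holds ACGTG and TATAAA, and the window at the ATF3 start nearest the deposited gene's 5′ end holds none of the 7 motifs. A match is a string of letters and not a shown binding site, and the windows leave out more distant elements.

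FOS, which pairs with JUN proteins to form AP-1, stood at 6.76, 2.75 and 3.47 FPKM in plate libraries and at 83.6 and 68.5 FPKM in printed ones. Both printed values lay far above every plate value, and FOS had the largest rise of all protein-coding genes other than GAGE12C (difference 3.92 ± 0.32, limma, adjusted p = 0.00502). Its relative FOSB was nearly silent in flasks, at 0.192, 0.166 and 0.0641 FPKM from 17, 18 and 7 reads. After printing FOSB reached 9.62 and 7.06 FPKM from 715 and 636 reads (difference 3.02 ± 0.20, adjusted p = 0.00326). ATF3, a stress-induced partner of AP-1 proteins, went from 9.54, 5.37 and 5.52 FPKM to 17.4 and 16.7 FPKM (difference 1.25 ± 0.27).

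All 3 GADD45 genes, which bind MAP kinase and cell cycle regulators under stress, rose. GADD45G stood at 4.497, 3.602 and 3.31 FPKM in plate and 18.4 and 14.1 FPKM in printed libraries (difference 1.84 ± 0.22, limma, adjusted p = 0.00735). GADD45B stood at 35.9, 27.6 and 25.003 against 73.2 and 67.7 FPKM, and GADD45A at 57.3, 46.9 and 48.7 against 95.8 and 94.6 FPKM. The orphan nuclear receptor NR4A2 rose from 0.457, 0.387 and 0.525 FPKM to 1.28 and 1.45 FPKM. Its level stayed low in every library.

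Other early genes fell in the same libraries. BTG2, an antiproliferative early gene and p53 target, stood at 46.6, 29.5 and 28.4 FPKM in plate and 10.2 and 10.9 FPKM in printed libraries (difference -1.60 ± 0.27, limma, adjusted p = 0.0106). The zinc finger factor KLF6 went from 43.96, 33.9 and 34.2 FPKM to 12.1 and 15.2 FPKM, and FOSL2, a FOS relative, from 32.7, 26.2 and 23.2 FPKM to 14.6 and 12.4 FPKM. KLF5 fell as well, by 0.72 ± 0.19 on the log2 scale. JUN (difference 0.25 ± 0.31), EGR1 (-0.69 ± 0.33) and JUNB (-1.02 ± 0.30) did not pass the test. In all, 33 of 36 listed immediate early genes were tested, 7 rose and 4 fell, around a median of -0.18. Without plate library 1 the counts were 11 and 6 and the median 0.01. After removal of the length and GC trend the balance of calls turned, with 9 higher, 13 lower and a median of -0.21 (12, 14 and -0.22 when plate library 1 was also left out). At equal totals 4 were higher and 20 lower.

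Feedback genes of MAP kinase signalling had more falls than rises. Of 18 tested MAP kinase phosphatases and ERK feedback genes, 1 rose and 3 fell (3 and 6 without plate library 1; median -0.29). RGS2, which limits G protein signalling, rose from 1.22, 1.73 and 1.87 FPKM to 3.21 and 3.91 FPKM. SPRED2 and SPRY4, inhibitors of RAS to ERK signalling, fell, SPRED2 from 11.1, 7.203 and 7.24 FPKM to 3.29 and 3.45 FPKM and SPRY4 from 9.41, 5.03 and 5.51 FPKM to 2.63 and 2.66 FPKM. The phosphatase DUSP8 fell from 4.64, 3.53 and 2.77 FPKM to 1.65 and 0.802 FPKM. DUSP1, an early phosphatase, was not called (difference -0.75 ± 0.27).

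Among EGF receptor ligands and growth factors, HBEGF was the single rise. This membrane-anchored ligand of the EGF receptor stood at 2.09, 2.104 and 2.04 FPKM in plate and 12.1 and 11.1 FPKM in printed libraries (difference 2.03 ± 0.18, limma, adjusted p = 0.00502), with almost no spread within a group. AREG (0.20 ± 0.26) and TGFA (0.04 ± 0.22), ligands of the same receptor, were not called. The insulin-like growth factor receptor IGF1R fell from 5.84, 4.16 and 4.05 FPKM to 1.74 and 1.84 FPKM. Of 14 tested members these were the only calls, against 3 higher and 3 lower without plate library 1 (median -0.12, and 0.09 without that library).

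Another 4 large rises were in genes of signalling, matrix and cell state. RGS16, a G protein regulator, stood at 1.21, 1.31 and 0.775 FPKM against 7.08 and 6.51 FPKM (difference 1.90 ± 0.20, limma, adjusted p = 0.00502). FST, which encodes the activin antagonist follistatin, stood at 0.801, 0.759 and 0.736 FPKM against 5.31 and 6.21 FPKM. SNAI1, a repressor of epithelial genes, stood at 0.445, 0.243 and 0.211 FPKM, from 12, 8 and 7 reads, against 3.81 and 3.51 FPKM, from 86 and 96 reads. MMP7, the matrix protease matrilysin, stood at 5.41, 10.7 and 12.8 FPKM against 40.4 and 40.9 FPKM. In each the printed libraries lay close together and well above the plate ones. 11 cAMP and CREB targets were tested, of which FOSB, RGS2 and NR4A2 rose and the clock gene PER1 fell (median 0.35, and -0.18 at equal totals; 4 and 2 calls without plate library 1). PER1 stood at 18.3, 14.8 and 12.5 FPKM in plate and 7.704 and 5.86 FPKM in printed libraries.

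**Figure D3:**
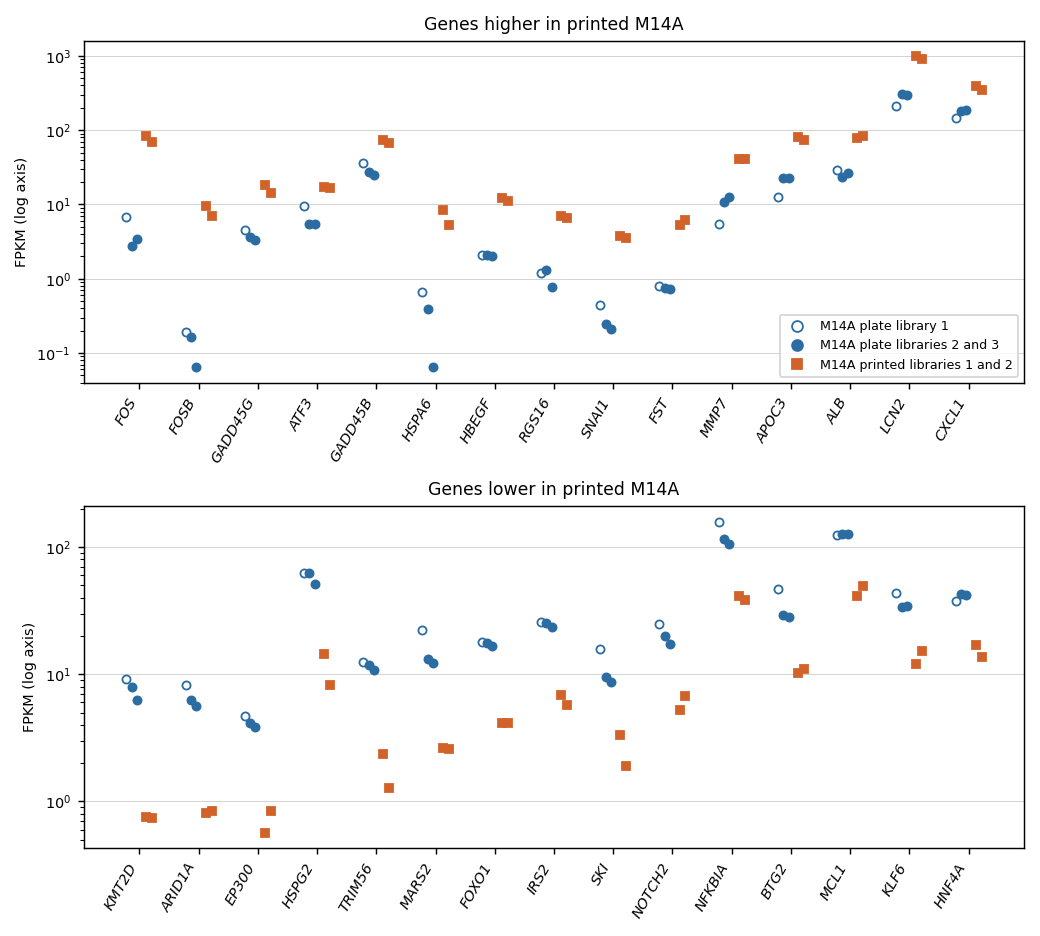
FPKM (log axis) of 15 genes called higher (upper panel) and 15 called lower (lower panel) in printed M14A, with 1 point per library. Open circles are plate library 1, filled circles plate libraries 2 and 3, and orange squares the printed libraries. In none of the 30 genes do the groups overlap, which holds for all 2416 called genes and for 52.9% of all tested genes.

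Among heat shock chaperones 2 genes rose. HSPA6, a strictly inducible HSP70, had 25, 18 and 3 reads in the plate libraries, or 0.6598, 0.389 and 0.0643 FPKM. It had 271 and 206 reads in the printed libraries, or 8.54 and 5.36 FPKM (difference 2.53 ± 0.27, limma, adjusted p = 0.00502). The mitochondrial cochaperonin HSPE1 rose from 21.4, 20.2 and 21.7 FPKM to 48.3 and 46.2 FPKM. The other major chaperones were not called, with differences of 0.77 ± 0.40 for HSPA1A, 0.86 ± 0.30 for HSPB1 and 0.01 ± 0.29 for DNAJB1, and HSPA1A shares much of its sequence with HSPA1B. Of 23 tested chaperones 2 rose and 0 fell (8 and 2 without plate library 1), around a median of 0.21 that turned to -0.47 at equal totals. The share of rises, 8.70%, was near the 9.72% of all tested genes. None of the 20 tested endoplasmic reticulum chaperones passed. The one with the highest mean level was the lectin chaperone CALR (596, 459 and 416 FPKM in plate, 683 and 670.1 FPKM in printed; difference 0.48 ± 0.23). Without plate library 1, 6 of them were higher and 2 lower. Their median was 0.21, and -0.48 at equal totals.

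ATF4 targets and stress regulators split. NUPR1, a small stress-induced nuclear protein, rose from 26.8, 18.8 and 15.9 FPKM to 57.7 and 50.6 FPKM (difference 1.39 ± 0.26, limma, adjusted p = 0.01498). ATF4 itself rose from 63.1, 45.2 and 42.5 FPKM to 111 and 99.6 FPKM, and PPP1R15A, which restores translation after stress, from 33.5, 21.5 and 20.1 FPKM to 60.6 and 48.5 FPKM. DDIT4, an inhibitor of mTOR signalling, fell from 69.4, 38.6 and 33.4 FPKM to 15.9 and 14.4 FPKM, and CEBPB from 259.9, 166 and 148 FPKM to 105 and 62.6 FPKM. Other ATF4 targets such as CHAC1 (-0.81 ± 0.25) and TRIB3 (-0.57 ± 0.33) were not called. Of 19 tested genes 4 rose and 2 fell (9 and 2 without plate library 1; median 0.34, and -0.41 at equal totals). After removal of the trend 4 were higher and 6 lower, with a median of 0.07.

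Antioxidant enzymes had rises only in the 5 libraries. Of 16 tested, 8 rose and none fell, and without plate library 1 the counts were 13 and 1. Their median was 0.85, against 0.04 for all genes, 0.65 after removal of the length and GC trend and 0.12 at equal totals. The glutathione peroxidases GPX1 and GPX4 stood at 729.7, 523 and 486 FPKM against 1747 and 1378 FPKM and at 226, 148 and 146 FPKM against 516 and 407 FPKM (differences 1.44 ± 0.25 and 1.43 ± 0.27). The peroxiredoxins PRDX5 and PRDX4 rose by 1.39 ± 0.24 and 1.25 ± 0.24, and superoxide dismutase SOD1 by 1.09 ± 0.22. SOD2, the inducible mitochondrial form, was not called (-0.07 ± 0.29).

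NRF2 targets moved less evenly. The ferritin light chain FTL, an iron store, stood at 5751, 4475 and 4152 FPKM in plate and 13856 and 11644 FPKM in printed libraries (difference 1.42 ± 0.20, limma, adjusted p = 0.00921). Thioredoxin, TXN, rose from 372, 312 and 322 FPKM to 718 and 663 FPKM, and haem oxygenase HMOX1 from 11.7, 7.28 and 6.95 FPKM to 18.7 and 15.4 FPKM. The call of TXN was lost once the length and GC trend was removed (adjusted p = 0.146). MAFG, a DNA-binding partner of NRF2, fell from 21.6, 18.3 and 16.4 FPKM to 9.605 and 7.47 FPKM. The glutamate cysteine ligases GCLC (-0.24 ± 0.21) and GCLM (-0.20 ± 0.21) and TXNRD1 (-0.47 ± 0.23) were not called. In all 5 of 20 rose and 1 fell (10 and 3 without plate library 1; median 0.16, and -0.45 at equal totals). Among 9 genes of the metallothionein and zinc response, MT1F rose from 4.31, 4.64 and 4.304 FPKM to 10.996 and 7.48 FPKM, and belongs to a family of near-identical copies. MTF1, the zinc-sensing factor that drives metallothioneins, fell from 6.16, 5.93 and 6.03 FPKM to 1.52 and 2.14 FPKM. The counts without plate library 1 were 5 higher and 2 lower (median 0.26 in all 5 libraries, -0.50 at equal totals).

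Among hypoxia targets and glycolytic genes the calls in the 5 libraries were rises. CA9, a carbonic anhydrase of hypoxic cells, stood at 72.8, 41.5 and 39.7 FPKM in plate and 225 and 156 FPKM in printed libraries (difference 1.90 ± 0.32, limma, adjusted p = 0.0108), although other genes overlap 38.5% of its exon sequence. BNIP3, a mitophagy receptor, rose from 39.2, 27.9 and 29.2 FPKM to 75.9 and 76.6 FPKM, and INSIG2, a sterol sensor partner, from 3.07, 4.55 and 5.38 FPKM to 8.49 and 10.1 FPKM. VEGFA (-0.09 ± 0.26) was not called. Of 22 hypoxia targets 3 rose and none fell (11 and 1 without plate library 1; median 0.34, and -0.26 at equal totals). The share of rises was 13.6%, against 9.72% of all tested genes (24.3% without plate library 1). In glycolysis GAPDH stood at 749, 485 and 438 FPKM against 1359.7 and 1257 FPKM (difference 1.27 ± 0.27). TPI1, ALDOC and ENO2 were the other rises, by 1.13 ± 0.27, 1.16 ± 0.33 and 0.99 ± 0.24. Those were 4 of 17 tested glycolytic genes (23.5%), with none lower, against 12 higher without plate library 1. Their median was 0.53, 0.74 after removal of the trend, and -0.15 at equal totals.

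Calls among p53 targets and apoptosis genes went both ways, at shares not far from those of all tested genes. PMAIP1, which encodes the pro-apoptotic NOXA, rose from 5.32, 7.79 and 7.68 FPKM to 13.6 and 18.3 FPKM (difference 1.10 ± 0.24, limma, adjusted p = 0.0222). BAX, a pore former of the mitochondrial outer membrane, rose from 95.7, 76.7 and 68.7 FPKM to 155 and 129 FPKM, and BID, its activator, from 23.6, 20.5 and 19.6 FPKM to 43.6 and 38.1 FPKM. MCL1, the short-lived pro-survival protein that NOXA binds, fell from 124, 127 and 127 FPKM to 41.3 and 49.3 FPKM (difference -1.46 ± 0.21, adjusted p = 0.0093997). The pro-apoptotic BMF fell from 1.26, 2.17 and 1.76 FPKM to 0.439 and 0.4302 FPKM, a call lost once the trend was removed (adjusted p = 0.0987). The translesion polymerase POLH, a p53 target, fell from 19.9, 12.98 and 12.1 FPKM to 5.13 and 4.81 FPKM, while CDKN1A, the p53-driven cell cycle inhibitor, was not called (0.01 ± 0.28). Of 23 p53 targets 3 rose and 2 fell (9 and 7 without plate library 1; median 0.15, -0.56 at equal totals). Of 21 apoptosis regulators 3 rose and 2 fell (4 and 7; median -0.11). Those shares were 13.0% higher and 8.70% lower for p53 targets and 14.3% and 9.52% for apoptosis regulators. All tested genes had 9.72% and 8.56% (24.3% and 20.2% without plate library 1).

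In the NF-kappaB list, several secreted chemokines rose and some inhibitors of the pathway fell. The neutrophil chemokines CXCL1, CXCL2, CXCL3 and CXCL8 were all called higher. CXCL3 rose from 2.12, 1.22 and 2.56 FPKM to 7.004 and 4.697 FPKM (difference 1.21 ± 0.26, limma, adjusted p = 0.0207). CXCL1 stood at 148, 184 and 184 FPKM against 389 and 343 FPKM, and CXCL8 at 56.2, 99.96 and 117 FPKM against 193 and 198 FPKM. CCL20, a lymphocyte chemokine, rose by 0.98 ± 0.24. NFKBIA, the inhibitor that holds NF-kappaB in the cytoplasm, fell from 159, 115 and 105 FPKM to 41.6 and 38.1 FPKM (difference -1.62 ± 0.25, adjusted p = 0.0101). BCL3, a nuclear relative of that inhibitor, fell from 33.05, 19.4 and 18.7 FPKM to 11.9 and 6.16 FPKM, and the deubiquitinase TNFAIP3, another brake, from 73.7, 61.4 and 58.6 FPKM to 30.8 and 37.4 FPKM. The cytokine LIF fell from 27.5, 19.4 and 16.4 FPKM to 9.02 and 7.83 FPKM. Of 29 tested members 8 rose and 5 fell (12 and 8 without plate library 1), around a median of -0.08 that turned to 0.13 without that library. At equal totals 0 were higher and 15 lower, with a median of -0.80, so none of the chemokines kept its call there.

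Acute phase proteins, which hepatocytes secrete in inflammation, rose in several members. LCN2, an iron-siderophore binding protein, stood at 212, 303 and 299.7 FPKM in plate and 989 and 919 FPKM in printed libraries (difference 1.83 ± 0.24, limma, adjusted p = 0.00872). The serum amyloid SAA1 stood at 1040.4, 1062 and 914 FPKM against 2686 and 2433 FPKM. The orosomucoids ORM1 and ORM2 rose by 1.48 ± 0.21 and 1.72 ± 0.23, but these genes are close copies, as are SAA1 and SAA2, so reads may be split between them. The antiprotease SERPINA3 fell by 0.90 ± 0.23 on the log2 scale. Of 17 tested 7 rose and 1 fell (10 and 2 without plate library 1; median 0.39, -0.37 at equal totals). Interferon response genes were called at shares near those of all tested genes (11.8% higher and 5.88% lower, against 9.72% and 8.56%). IFI6 rose from 231, 164 and 151 FPKM to 672 and 564 FPKM and IFI27 from 76.2, 45.4 and 48.4 FPKM to 132 and 125 FPKM, while OAS3, an RNA sensor, fell from 27.3, 22.8 and 19.4 FPKM to 11.3 and 13.2 FPKM. IFIT1 (-0.36 ± 0.29) and MX1 (-0.04 ± 0.18) were not called. These made 2 higher and 1 lower of 17 (3 and 7 without plate library 1; median -0.20).

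Among hepatocyte products the calls in the 5 libraries were rises, and among liver transcription factors they were falls. Of 42 listed secreted proteins of hepatocytes 22 were tested, of which 7 rose and none fell. ALB, albumin, stood at 29.1, 23.1 and 26.8 FPKM in plate and 79.1 and 83.3 FPKM in printed libraries (difference 1.59 ± 0.22, limma, adjusted p = 0.008796). APOC3, an inhibitor of triglyceride clearance, stood at 12.8, 22.6 and 22.6 FPKM against 80.4 and 74.8 FPKM (difference 1.99 ± 0.29). APOA4, of the same gene cluster, rose from 2.76, 4.24 and 4.52 FPKM to 11.6 and 11.5 FPKM and APOH, beta-2-glycoprotein, from 1.97, 1.81 and 1.95 FPKM to 7.01 and 6.44 FPKM. APOB, the very long message of the main lipoprotein scaffold, was not called (-0.93 ± 0.49), nor was SERPINA1 (0.50 ± 0.28). Without plate library 1 the list had 15 higher and 1 lower. Its median was 0.58, 0.41 after removal of the trend and -0.08 at equal totals, where 3 were higher and 2 lower.

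None of the 21 tested liver transcription factors rose and 4 fell, around a median of -0.56 (-0.59 after removal of the trend). Beside HNF4A, the fall reached NR2F2, an orphan nuclear receptor, from 6.78, 4.88 and 4.76 FPKM to 2.26 and 1.83 FPKM (difference -1.08 ± 0.22, limma, adjusted p = 0.0165). GATA6 fell from 2.52, 1.62 and 1.39 FPKM to 0.625 and 0.422 FPKM. CEBPB was the fourth, and HNF4A is counted although its reads may include an introduced copy. FOXA2 (-0.54 ± 0.35) and CEBPA (-0.58 ± 0.27) lay below 0 without passing, and NR1H3 (0.60 ± 0.20) lay above it. Without plate library 1 the counts were 1 higher and 7 lower, with a median of -0.40.

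Among drug metabolism, bile acid and urea cycle genes the calls in the 5 libraries were rises. They made up 23.5, 18.2 and 9.09% of the tested members, against 9.72% of all tested genes. Of 17 drug metabolism enzymes 4 rose and none fell (8 and 2 without plate library 1; median 0.35, -0.35 at equal totals). GSTA1, a glutathione transferase with close copies, stood at 7.98, 6.28 and 5.39 FPKM against 23.5 and 16.9 FPKM. ALDH2, which oxidises acetaldehyde, rose by 0.85 ± 0.20. UGT2B7 (0.84 ± 0.19) and CYP4F2 (0.67 ± 0.18) also passed, but neither kept its call once the trend was removed (adjusted p = 0.222 and 0.103). In bile acid synthesis and transport the rises were SLC51B, a subunit of the basolateral bile acid exporter, by 0.82 ± 0.23, and the sterol hydroxylase CYP27A1 by 0.73 ± 0.21. CYP27A1 came to -0.01 at equal totals. The 11 tested members had a median of 0.04 (-0.56 at equal totals) and the same 2 and 0 calls in number without plate library 1. ASS1, a urea cycle enzyme, rose from 127, 104 and 89.7 FPKM to 194 and 187 FPKM as the only call among 11 genes of its list (median 0.12, -0.45 at equal totals; 7 higher and none lower without plate library 1).

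Insulin signalling to glucose output held 2 of the sharper falls. FOXO1, the factor that drives gluconeogenesis in fasting, stood at 17.99, 17.8 and 16.7 FPKM in plate and 4.17 and 4.15 FPKM in printed libraries (difference -1.84 ± 0.19, limma, adjusted p = 0.00502). IRS2, the docking protein of the insulin receptor, stood at 25.7, 25.1 and 23.6 FPKM against 6.88 and 5.69 FPKM (difference -1.83 ± 0.20, adjusted p = 0.00611). Within each group the values were close. The other 13 tested genes of gluconeogenesis and glycogen were not called (list median 0.19, -0.55 at equal totals; 4 higher and 3 lower without plate library 1). Among 25 genes of sterol and fatty acid synthesis FASN and ACACA, which make long-chain fatty acids, fell, FASN from 339.8, 199 and 172 FPKM to 122 and 52.5 FPKM. FASN was not called without plate library 1 (adjusted p = 0.0508). The list median was -0.17, with 4 higher and 3 lower without plate library 1. Its share lower in the 5 libraries, 8%, was near the 8.56% of all tested genes. Among 16 genes of fatty acid oxidation and PPAR targets CIDEC, a lipid droplet protein, rose by 0.87 ± 0.25 and CPT1A, the gate of mitochondrial fatty acid import, fell from 28.3, 18.1 and 15.9 FPKM to 10.4 and 7.44 FPKM. Their list median was 0.52 (-0.21 at equal totals), with 11 higher and 1 lower without plate library 1.

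The few calls among clock genes and glucocorticoid targets in the 5 libraries were falls, and PER1 is in both lists. They made up 16.7 and 15.4% of the tested members, against 8.56% lower among all tested genes. PER1 and CRY2, repressors of the circadian clock, fell, CRY2 from 5.03, 2.63 and 2.54 FPKM to 1.27 and 1.27 FPKM. They were the only calls among 12 clock genes (median -0.24; 0 higher and 3 lower without plate library 1). Among 13 glucocorticoid responsive genes PER1 and ZBTB16 fell, ZBTB16 from 14.2, 12.9 and 10.2 FPKM to 6.16 and 5.604 FPKM (limma, adjusted p = 0.0238). FKBP5 (0.06 ± 0.25), a classic target of the receptor, was not called (list median -0.42; 2 and 4 calls without plate library 1).

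YAP/TAZ targets and regulators had falls only. Of 20 tested 7 fell and none rose, and 11 fell without plate library 1. The median was -0.43, -0.60 without that library and -0.41 after removal of the trend. AMOTL2, an angiomotin that retains YAP at junctions, stood at 47.05, 29.7 and 26.8 FPKM in plate and 13.01 and 10.9 FPKM in printed libraries (difference -1.41 ± 0.28, limma, adjusted p = 0.0162). Its relative AMOTL1 fell from 4.61, 3.55 and 3.36 FPKM to 1.02 and 1.36 FPKM, and the Hippo kinase LATS2 from 8.03, 8.75 and 7.62 FPKM to 3.39 and 2.91 FPKM. NUAK2 fell by 1.15 ± 0.32. The best known targets CTGF (0.32 ± 0.21) and CYR61 (-0.07 ± 0.21) were not called.

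Adhesion and matrix genes showed falls in large glycoproteins. HSPG2, which encodes the basement membrane proteoglycan perlecan, stood at 62.6, 62.4 and 51.1 FPKM in plate and 14.5 and 8.18 FPKM in printed libraries (difference -2.32 ± 0.27, limma, adjusted p = 0.00727). FN1, fibronectin, stood at 149, 206 and 188 FPKM against 74.7 and 102 FPKM, a call not kept after removal of the trend (adjusted p = 0.0604). The protease ADAMTS9 fell by 1.32 ± 0.22, while MMP7 and the inhibitor TIMP1 rose. Of 11 tested matrix genes 2 rose and 4 fell (2 and 6 without plate library 1; median -0.31). LAMA5, a laminin chain, fell from 33.6, 23.5 and 19.997 FPKM to 14.6 and 7.52 FPKM as the only call among 20 integrin, laminin and focal adhesion genes (median -0.20; 1 higher and 5 lower without plate library 1). That median was 0.07 after removal of the trend. At junctions CLDN7, a claudin, rose from 19.8, 13.4 and 11.7 FPKM to 42.7 and 34.4 FPKM, and CTNND1, p120 catenin, fell from 22.4, 18.5 and 17.8 FPKM to 8.24 and 11.7 FPKM, as the only calls of 17 (median -0.05; 2 and 4 without plate library 1). In the actin list the monomer binders CFL1 and PFN1 rose, by 1.05 ± 0.25 and 0.99 ± 0.25, and the long crosslinker FLNA (-0.37 ± 0.27) did not pass. That made 2 higher and none lower of 24 (9 and 3 without plate library 1; median 0.17, -0.53 at equal totals). The share higher was 8.33%, near the 9.72% of all tested genes.

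Several feedback genes of TGF-beta and BMP signalling fell. SKI, a corepressor of SMAD proteins, stood at 15.9, 9.53 and 8.64 FPKM in plate and 3.34 and 1.897 FPKM in printed libraries (difference -1.75 ± 0.30, limma, adjusted p = 0.0111). The inhibitory SMAD6 fell from 5.43, 4.796 and 4.08 FPKM to 1.69 and 1.24 FPKM and SMAD7 from 10.9, 10.1 and 9.37 FPKM to 4.05 and 3.87 FPKM. ID2, a BMP-induced inhibitor of differentiation, rose from 14.3, 12.9 and 13.4 FPKM to 30.7 and 30.01 FPKM, while ID1 (0.04 ± 0.30) was not called. Of 17 tested 1 rose and 4 fell (3 and 7 without plate library 1; median -0.24). In the Wnt and Notch list the receptors NOTCH1 and NOTCH2 fell, NOTCH2 from 24.8, 20.1 and 17.4 FPKM to 5.21 and 6.79 FPKM (difference -1.63 ± 0.24). ZNRF3, a ligase that removes Wnt receptors, fell by 1.03 ± 0.22, and the Notch target HEY1 rose from 0.891, 0.761 and 0.8804 FPKM to 2.82 and 2.75 FPKM. These were the calls among 11 tested (median -0.54; 1 and 5 without plate library 1).

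Among biliary and progenitor markers the trefoil peptides TFF3 and TFF2, secreted with mucus, rose. TFF3 stood at 25.7, 24.7 and 23.2 FPKM in plate and 92.1 and 78.9 FPKM in printed libraries (difference 1.76 ± 0.21, limma, adjusted p = 0.00735). The biliary keratin KRT7 rose from 1.82, 2.04 and 2.22 FPKM to 6.66 and 4.82 FPKM. SOX4 fell from 5.86, 5.75 and 5.46 FPKM to 1.75 and 2.01 FPKM, while SOX9, the defining biliary factor, was not called (0.09 ± 0.20). Of 10 tested 3 rose and 1 fell (6 and 1 without plate library 1; median 0.62, -0.12 at equal totals).

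Cell cycle genes fell in few members. In the G2 and M list, which holds FOXM1 targets, MKI67, TOP2A, CENPF and TTK fell and none rose. MKI67 stood at 8.67, 18.96 and 16.6 FPKM in plate and 2.94 and 5.67 FPKM in printed libraries (difference -1.55 ± 0.36, limma, adjusted p = 0.0251). TOP2A stood at 10.2, 21.5 and 23.6 FPKM against 6.11 and 7.66 FPKM. CENPF stood at 4.69, 6.82 and 5.499 FPKM against 1.63 and 2.31 FPKM. In these 3 genes plate library 1 held the lowest plate value. CCNB1 (-0.19 ± 0.30) and BIRC5 (0.40 ± 0.30), also of mitosis, were not called. Without plate library 1, 10 of the 24 tested fell and 1 rose, and the median went from -0.40 to -0.28. In the G1/S list CDC25A and E2F2 fell, by 1.02 ± 0.20 and 1.07 ± 0.19, of 25 tested (median -0.04; 3 higher and 9 lower without plate library 1). The share lower in the 5 libraries, 8%, was near the 8.56% of all tested genes. Replication-dependent histones, whose messages mostly lack a poly(A) tail, went the other way. HIST1H1C stood at 98.8, 79.8 and 77.9 FPKM against 212 and 174 FPKM, and HIST1H4C, on 1, 3 and 2 reads in plate and 22 and 13 in printed libraries, at 0.144, 0.353 and 0.234 FPKM against 3.78 and 1.84 FPKM. Of 14 tested 7 rose and none fell (10 and none without plate library 1). Their median of 0.74 became 0.40 after removal of the trend and 0.06 at equal totals, and near-identical copies make single histone genes uncertain.

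Ribosomal protein genes rose almost without exception. All 34 tested lay above 0, from 0.91 to 1.68, and 33 were called, RPS23 (0.91 ± 0.34) being the exception. RPS19, of the small subunit, stood at 372, 271 and 252 FPKM in plate and 1032 and 863 FPKM in printed libraries (difference 1.68 ± 0.24, limma, adjusted p = 0.009405). RPLP2, of the acidic stalk, stood at 352, 267 and 239 FPKM against 912 and 812 FPKM. RPS20 and RPS9 rose by 1.61 ± 0.23 and 1.59 ± 0.26. The list median was 1.42, and it was 1.56 without plate library 1, 1.29 after removal of the trend and 0.66 at equal totals. In each of these settings 33 of the 34 were called higher.

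Among nuclear long non-coding RNAs and hosts of small nucleolar RNAs, several hosts rose. SNHG5 stood at 71.5, 66.2 and 72.8 FPKM in plate and 258 and 236 FPKM in printed libraries (limma, adjusted p = 0.00675). GAS5 stood at 32.2, 35.5 and 39.97 FPKM against 132 and 118 FPKM, and SNHG6 and ZFAS1 rose by 1.65 ± 0.21 and 1.52 ± 0.21, with 36.4 and 46.9% of their exon sequence overlapped by other genes. The nuclear transcripts MALAT1 (0.54 ± 0.52) and NEAT1 (-0.08 ± 0.34), which host no such RNA, were not called. Of 17 tested 8 rose and none fell (9 and 4 without plate library 1; median 0.57, -0.13 at equal totals). Ribosome assembly genes had calls in both directions, 11.1% higher and 11.1% lower, near the 9.72% and 8.56% of all tested genes. NPM1 and FBL, nucleolar proteins, rose by 0.93 ± 0.27 and 0.85 ± 0.25, and POLR1A and POLR1B, the large subunits of RNA polymerase I, fell. POLR1A stood at 13.6, 9.07 and 7.96 FPKM against 2.85 and 3.29 FPKM. The other tested genes of the 18 were not called (median -0.03; 4 higher and 3 lower without plate library 1).

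Some respiratory chain messages of both genomes rose. Of 33 tested nuclear-encoded subunits all had a difference above 0, and 18 were called (31 without plate library 1). COX8A and COX5B, of cytochrome oxidase, stood at 353, 215 and 239 FPKM against 765 and 681 FPKM and at 189, 138 and 122 FPKM against 416 and 345 FPKM (differences 1.46 ± 0.26 and 1.36 ± 0.26). UQCRH, of complex III, and COX7C rose by 1.31 ± 0.22 and 1.30 ± 0.22, and COX7C was not called after removal of the trend (adjusted p = 0.05403). The list median was 0.95, 0.78 after that removal and 0.20 at equal totals. Of the 13 messages of the mitochondrial genome 5 rose and 1 fell (8 and 1 without plate library 1). MT-CO2 stood at 12858, 9696 and 10083 FPKM in plate and 30919 and 32254 FPKM in printed libraries (difference 1.55 ± 0.18, limma, adjusted p = 0.00675). MT-CO3, MT-ND3 and MT-ND2 rose by 1.18 ± 0.18, 1.13 ± 0.19 and 0.95 ± 0.21, the latter pair without a call once the trend was removed. These values stand beside a share of mitochondrial reads of 8.21 to 9.72% in plate and 13.3 and 16.4% in printed libraries, whose part in the result was not tested. MT-ND5 fell from 1585, 1451 and 1395 FPKM to 723 and 925 FPKM. The median was 0.61, 0.25 after removal of the trend and -0.16 at equal totals. In autophagy and lysosome genes NPC2, a cholesterol carrier of the lysosome, rose by 1.03 ± 0.26 and the initiating kinase ULK1 fell by 0.90 ± 0.23, as the only calls of 18 (median 0.38, -0.36 at equal totals; 8 and 1 without plate library 1).

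Several of the largest falls were in long genes. The large chromatin regulators, with a median gene length of 15.5 kb, had no rise and 11 falls of 20 tested, and 17 falls without plate library 1. KMT2D, a histone H3 lysine methyltransferase of enhancers (chromosome 12, 49018975 to 49059774), stood at 9.24, 7.98 and 6.28 FPKM in plate and 0.748 and 0.744 FPKM in printed libraries (difference -2.33 ± 0.21, limma, adjusted p = 0.00502). ARID1A, a subunit of the BAF remodelling complex, stood at 8.26, 6.25 and 5.61 FPKM against 0.812 and 0.844 FPKM (difference -2.06 ± 0.21). The acetyltransferase EP300 stood at 4.71, 4.13 and 3.88 FPKM against 0.568 and 0.839 FPKM. CHD4 (0.13 ± 0.19) and SMARCA4 (-0.33 ± 0.27), remodelling ATPases, were not called. The list median went from -0.83 to -0.36 once the length and GC trend was removed, with 9 lower and 1 higher, and KMT2D, ARID1A and EP300 kept their calls.

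The other protein-coding genes with the largest falls were of several kinds. PLEC, which encodes the cytoskeletal linker plectin, stood at 104, 80.1 and 67.5 FPKM in plate and 24.5 and 10.4 FPKM in printed libraries (difference -2.29 ± 0.36, limma, adjusted p = 0.0101). TRIM56, a ubiquitin ligase of antiviral defence, stood at 12.6, 11.8 and 10.8 FPKM against 2.35 and 1.28 FPKM (difference -2.20 ± 0.23). BCL9L, a coactivator of beta-catenin, stood at 29.04, 20.98 and 17.2 FPKM against 4.52 and 2.72 FPKM, although other genes overlap 38.8% of its exon sequence. The groups did not overlap in these 3 genes, as in all 2416 called genes and in 52.9% of all tested genes. FBXL18, TNRC18, ITPRIPL2, MARS2 and HPS6 fell by 2.26 ± 0.27, 2.27 ± 0.30, 2.21 ± 0.24, 2.17 ± 0.27 and 2.00 ± 0.33, and 21.3% of the exon bases of ITPRIPL2 are shared. SPATA25 fell by 2.04 ± 0.19 on few reads, with 49, 71 and 74 in plate and 4 and 4 in printed libraries.

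The largest rise by size was uneven between the printed libraries. GAGE12C, of a cancer-testis antigen family with near-identical copies, stood at 1.19, 0.6802 and 0.482 FPKM in plate and 280.2 and 6.55 FPKM in printed libraries (difference 4.71 ± 1.20, limma, adjusted p = 0.03297), and it was not called without plate library 1 (adjusted p = 0.0520) or at equal totals (adjusted p = 0.0645). Its copy GAGE13 stood at 9.68, 4.73 and 9.11 FPKM against 50.9 and 27.9 FPKM. Reads may be split between such copies, so neither value is certain. Among non-coding genes outside the lists, RNA5-8SN2, a 5.8S ribosomal RNA gene, stood at 8.18, 10.4 and 3.65 FPKM against 128 and 99.97 FPKM. The other leading rises and falls of this kind rested on few reads. MIR3648-1 had 3, 2 and 0 reads in plate and 39 and 46 in printed libraries, and AL158152.2 had 1, 2 and 0 against 29 and 34. MIR6071 had 19, 9 and 13 reads against 0 and 0, RN7SL5P had 78, 83 and 17 against 0 and 2, and the pseudogene AC018638.2 had 52, 88 and 106 against 1 and 7.

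**Figure D4:**
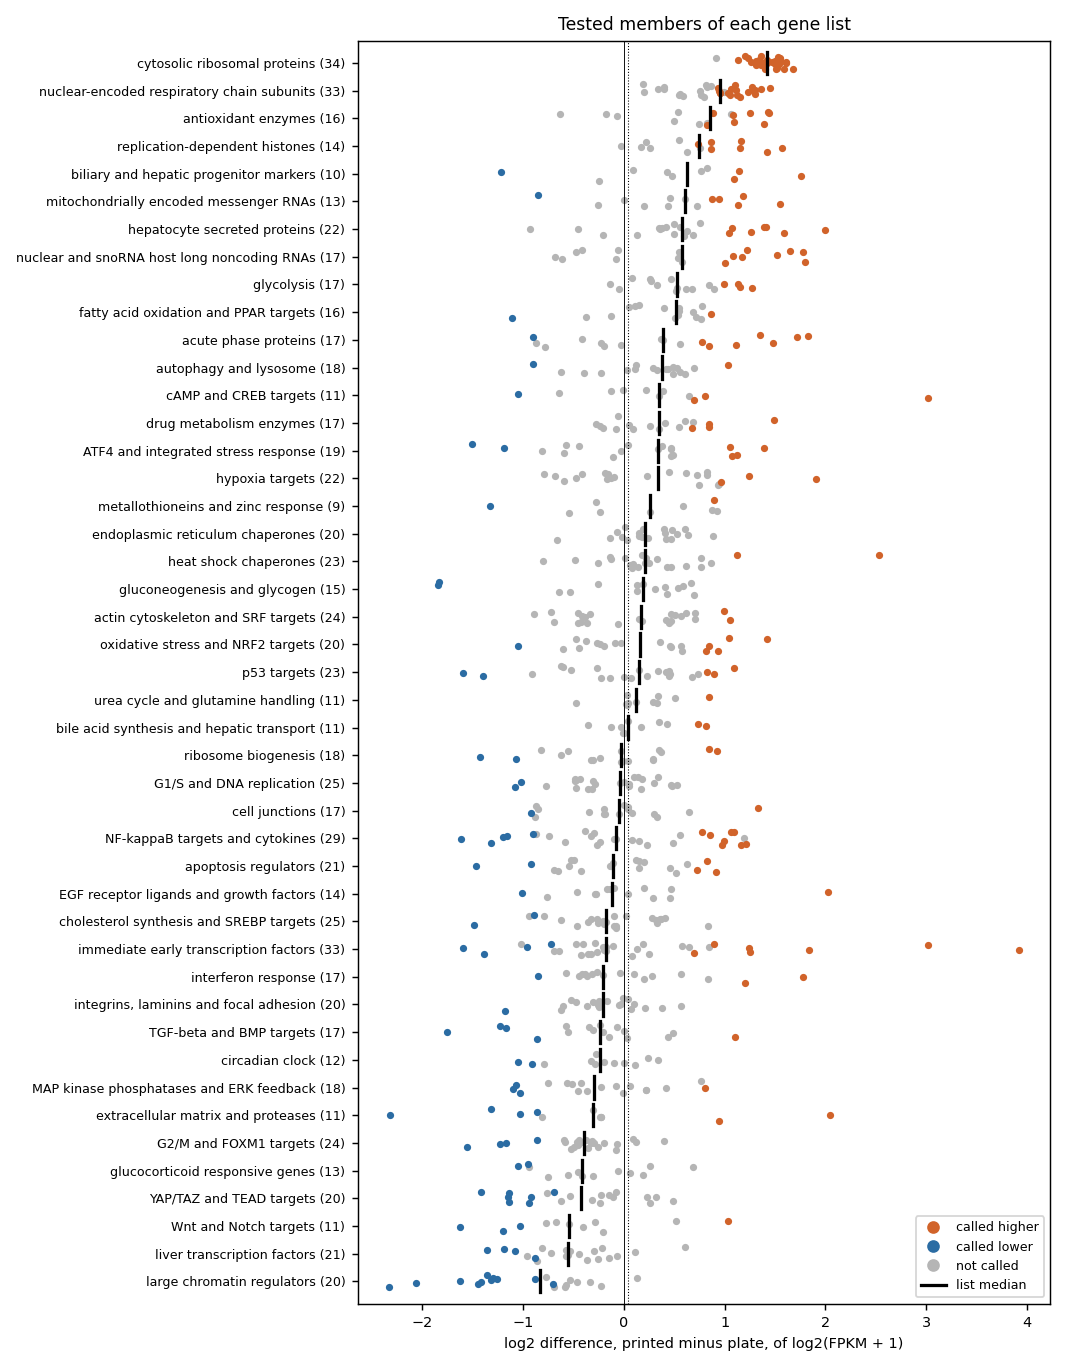
Log2 difference, printed minus plate, of every tested member of the 45 gene lists, ordered by list median (black bars), with the number tested in brackets. Orange and blue points are members called higher and lower, grey points are not called, and the dotted line is the median of all 13219 genes at 0.04; ribosomal proteins lie at the top (1.42) and large chromatin regulators at the bottom (-0.83).

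The lists together held 1004 distinct genes, of which 810 were tested. Rescaling to equal totals lowered the median of each list, and 4 lists kept a median above 0: ribosomal proteins, respiratory chain subunits, antioxidant enzymes and histones. Removal of the length and GC trend turned the median of 4 lists, from -0.12 to 0.08 for EGF receptor ligands, from 0.26 to -0.02 for metallothioneins, from -0.08 to 0.04 for NF-kappaB targets and from -0.20 to 0.07 for integrins and laminins. Removal of the trend also turned the balance of calls in 5 further lists. Higher and lower calls then numbered 3 and 5 for apoptosis regulators, 6 and 7 for NF-kappaB targets, 3 and 5 for interferon response genes, 6 and 2 for gluconeogenesis and glycogen, and 3 and 1 for integrins and laminins. Other genes overlap 41.2% of the exon sequence of DDIT4, 43.1% of APOA4, 34.5% of COX8A, 23.9% of HSPE1, 19.03% of CFL1, 15.9% of FOXM1 and 11.7% of HSPG2, and 10.1 to 14.2% of ALDOC, CEBPB, CLDN7, RPLP2, GAPDH and GATA6, so some of their reads may come from those genes. Of the 156 called genes that the naming rule selects, 120 kept their call at equal totals. The calls lost there were ALDH2, ALDOC, APOA4, ASS1, BAX, BID, CFL1, CIDEC, CXCL3, CYP27A1, CYP4F2, ENO2, FBL, GADD45A, GAGE12C, HMOX1, HSPE1, ID2, IFI27, INSIG2, KRT7, MMP7, MT-ND2, MT1F, NPC2, NPM1, NR4A2, PFN1, PMAIP1, PPP1R15A, RGS2, SLC51B, TFF2, TPI1, TXN and UGT2B7.

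**Figure D5:**
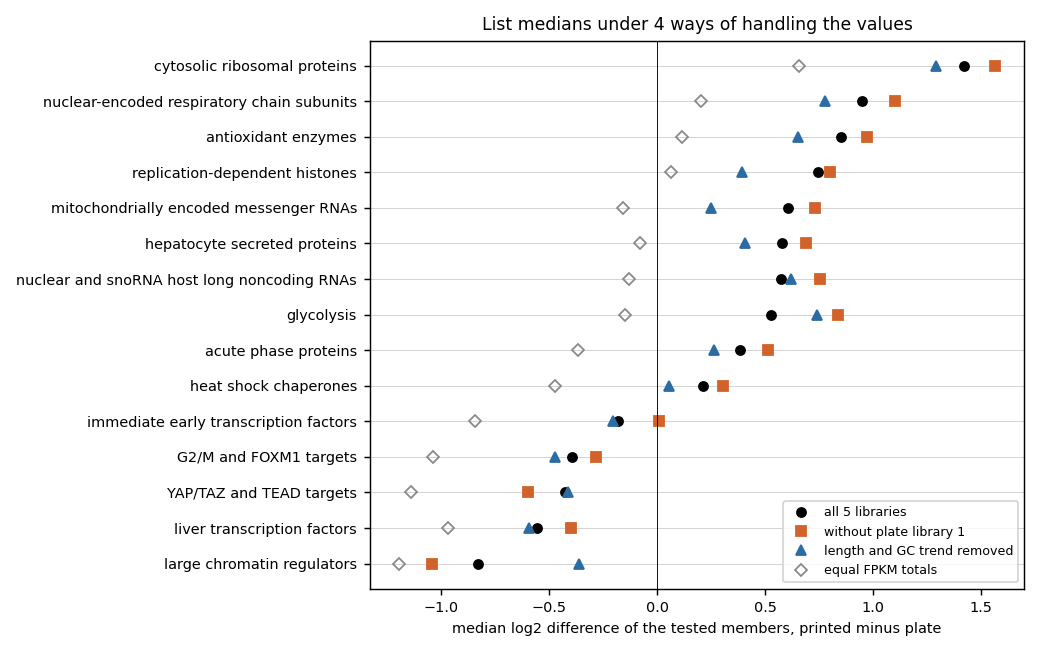
Median log2 difference (horizontal axis) of the tested members of 15 gene lists with all 5 libraries (black circles), without plate library 1 (orange squares), after removal of the length and GC trend (blue triangles) and at equal FPKM totals (open diamonds). Ribosomal proteins lie above 0 in all 4 settings (0.66 to 1.56), and glycolysis, secreted hepatocyte proteins and 4 other lists turn negative at equal totals.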

How the data were processed

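RNA was collected in TRIzol and 1 µg per sample was the input of each library (NEBNext Ultra RNA kit), per the labels' protocols. The submitters' processing notes name HISAT2 2.0.5 and featureCounts 1.5.0-p3; the genome build is not given in the sources used here, and the coordinates of all 58735 genes are identical to GENCODE 29 on GRCh38. The authors deposited 1 table of FPKM values per gene for all libraries, and no column lacked a sample. Whether counting used strand, and whether poly(A) RNA was selected, is not given in the sources used here. Whole reads were recovered from the FPKM and gene lengths (100% of values whole within 0.01 read), which gave the depth of each library.

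Levels were analysed as log2(FPKM + 1) in limma 3.58.1 (R 4.3.3) with empirical Bayes moderation and a mean trend, over the 5 M14A libraries (3 residual degrees of freedom), two-sided, with Benjamini-Hochberg adjustment over 13219 genes. FPKM are not counts, so no count model gave the main result. Alternatives were another pseudocount, other filters, rescalings, all 8 libraries, library weights, no mean trend, the replicate number as a block, voom on recovered reads, removal of the length and GC trend, and leaving out each library. The removal of that trend without plate library 1 and the fit on protein-coding genes were added after the data were seen. Genes named by rule were the called genes with the largest change (12 in each direction among protein-coding genes, 3 among others) and, in each list, up to 4 called members by size of change (with none called, the member with the highest mean level), besides HNF4A and FOXM1. Gene lists and members were chosen with earlier results of these data known, and further list members, called or not, were chosen after their values were seen. Promoter windows come from RefSeq (GRCh38.p14). Some genes that the naming rule or the lists select are not reported here.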

Additional observations from a re-analysis of the deposited data

How the results depend on the processing

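Counts of called genes moved with the settings. Among the 156 called genes that the naming rule selects 1 changed sign, CYP27A1 at equal FPKM totals (-0.0099 against 0.73). The groups did not overlap in any called gene, so leaving out a library or changing the pseudocount or filter could not turn a sign. The rule also picks genes for large changes in these same data, so kept signs say little about stability. Genes higher and lower numbered 1285 and 1131 with the 5 libraries. With no filter on low levels they numbered 0 and 0, and with a filter at 5 FPKM the lower genes numbered 688. At equal totals they numbered 325 and 4855, and 505 and 3742 when mitochondrial genes were left out of the totals. Using all 8 libraries gave 2603 and 2200, library weights 3550 and 3107, and removal of the length and GC trend 2482 and 2207, or 3573 and 3166 without plate library 1 as well. Leaving out each library in turn gave 9 to 3211 higher and 3 to 2671 lower genes. The causes were not tested. With the replicate number as a block, 2712 genes were higher and 2387 lower. Only 2 pairs share a number, and their deviations from the group means had correlations of 0.51 and 0.39. Printed library 2 and plate library 3, of different numbers, had 0.47. With 2 printed libraries the deviations of one are the negative of the other's, so these correlations cannot show a pairing. Nothing in the labels says that a number marks a shared culture or day. The other alternatives (pseudocount 0.1, median-ratio scaling, no mean trend, voom on recovered reads, protein-coding genes only) kept both counts within 1.5 times. Depth limits single genes of few reads, and 2 printed libraries limit every result.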

Other observations

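Gene types other than protein-coding genes differed in their calls, where all tested genes had 9.72% higher and 8.56% lower. Processed pseudogenes, copies of messages put back into the genome, had 131 higher and 35 lower of 469 tested. Those of ribosomal protein genes had 47 higher and 3 lower of 72, with a median difference of 1.22, and the other 397 had 84 higher and 32 lower, with a median of 0.34. Such copies can take reads of their parent genes, and the share of such reads was not tested. Long intergenic RNAs had 80 higher and 39 lower of 613. Several classes of small RNA genes had more falls than rises, with 2 higher and 17 lower of 59 small nucleolar RNA genes, 5 and 13 of 88 microRNA genes, and 3 and 14 of 50 genes of other small RNAs. Mitochondrial transfer RNA genes went the other way, with 6 higher and 4 lower of 21. Whether reads at small RNA genes came from the small RNAs themselves or from longer transcripts over them was not tested.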
